A study of Mus musculus with 35 samples.

Results

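The genes described here are 9 cytokine genes that act on cells of the monocyte, macrophage and granulocyte lineages: the chemokines Ccl2, Ccl7, Ccl5, Ccl20 and Cx3cl1, the colony-stimulating factors Csf1, Csf2 and Csf3, and Il34. They were chosen by symbol, and each of the 9 had a row among the 22180 genes of the deposited matrix. The matrix came from 3' messenger RNA sequencing of 35 mouse libraries in 7 groups of 5. The RiboTag group held RNA that was pulled down with HA-tagged ribosomes from the muscularis of naive Sox10iCreERT2Rpl22HA/+ mice that carried Cre. In these mice tamoxifen, given on consecutive days and followed by a rest of at least a week, switches on the tagged ribosomal protein in cells expressing Sox10, a transcription factor of glia. The other 6 groups were cultured enteric glia, the glial cells of the gut wall, grown from neurospheres of the small-intestinal muscularis externa of wild-type mice on a C57BL/6 background. Neurospheres proliferated for 7 days and then differentiated for 3 days per the labels on a coating of Matrigel or of laminin or, as the comparator, of poly-L-ornithine. Each coating carried 5 libraries treated with IL-1β at 10 ng/mL for 24 h and 5 naive libraries kept in serum-free medium. Laminin is a protein of basement membranes and Matrigel an extract rich in it, whereas poly-L-ornithine is a synthetic polycation without any matrix protein. Mice were 8 to 16 weeks old. RiboTag and culture libraries differed together in genotype, culture, pull-down and RNA kit, so that the parts of these cannot be told apart, and neurosphere cultures can hold cells other than glia. The labels call the 5 libraries of a group biological replicates. The limma p-values rest on the spread within groups, pooled over the groups of a fit, and take libraries as independent. The submitters' descriptions give each library a serial number. Culture libraries at the same place in that order were slightly alike across the 6 culture groups (75 pairs, mean r = 0.046). Libraries counted together over the coatings may therefore not be fully independent.

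Chemokines are small secreted proteins that direct leukocyte movement through receptors on the responding cell. Ccl2 and Ccl7 bind CCR2 and draw inflammatory monocytes out of the blood, Ccl5 draws monocytes and T cells, Ccl20 binds CCR6 on lymphocytes and dendritic cells, and Cx3cl1, or fractalkine, is made on the cell membrane and binds CX3CR1 on monocytes and resident macrophages. Csf1 and Il34 are separate ligands of the same receptor, CSF1R, on which macrophages of the gut muscularis depend, while Csf2 (GM-CSF) and Csf3 (G-CSF) act on myeloid precursors and granulocytes. Interleukin-1 signals through MyD88 to the transcription factor NF-κB, and several of these genes are known NF-κB targets.

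In mm10 coordinates, taken from RefSeq on GRCm38.p6, Ccl2 (chromosome 11, 82035577 to 82037452), Ccl7 (chromosome 11, 82045712 to 82047525) and Ccl5 (chromosome 11, 83525778 to 83530518) lie on one chromosome. Csf2 (54247270 to 54249899) and Csf3 (98700183 to 98703631) lie on chromosome 11 too. Ccl20 is on chromosome 1 (83116766 to 83119167), Csf1 on chromosome 3 (107741048 to 107760469), and Cx3cl1 (94772180 to 94782427) and Il34 (110741829 to 110805949) are on chromosome 8. Promoter windows matched by symbol for 4 of the 9 genes (Ccl20, Csf1, Cx3cl1 and Csf2). The 250 bases before the annotated start are shown 5′ to 3′ on the gene's strand for a chemokine that was close to 0 in naive cultures (Ccl20), for a growth factor found in every naive culture (Csf1) and for fractalkine (Cx3cl1), which also rose after IL-1β. Capitals mark a match to the NF-κB consensus searched on either strand.
Ccl20 (chr1:83116516-83116765, + strand): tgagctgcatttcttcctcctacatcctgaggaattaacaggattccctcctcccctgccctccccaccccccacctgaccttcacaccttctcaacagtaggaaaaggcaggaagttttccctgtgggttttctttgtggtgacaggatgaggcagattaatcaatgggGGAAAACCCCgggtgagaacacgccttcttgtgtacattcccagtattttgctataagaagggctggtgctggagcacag
Csf1 (chr3:107760470-107760719, - strand): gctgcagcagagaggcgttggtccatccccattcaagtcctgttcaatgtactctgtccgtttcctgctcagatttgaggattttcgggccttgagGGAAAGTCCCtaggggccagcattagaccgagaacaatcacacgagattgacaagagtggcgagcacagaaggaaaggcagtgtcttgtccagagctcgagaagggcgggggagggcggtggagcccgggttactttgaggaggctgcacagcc
Cx3cl1 (chr8:94771930-94772179, + strand): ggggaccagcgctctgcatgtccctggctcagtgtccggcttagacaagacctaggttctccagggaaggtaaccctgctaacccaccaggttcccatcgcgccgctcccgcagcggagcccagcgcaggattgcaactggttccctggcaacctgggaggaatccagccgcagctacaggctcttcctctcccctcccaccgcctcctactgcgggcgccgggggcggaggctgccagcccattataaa
Counted from the annotated start, the Ccl20 match began at position -80 and the Csf1 match at -154, and no such match was found in the Cx3cl1 window. Over 32851 RefSeq windows of 300 bases, 4.51% held such a match. The other motifs searched on both strands were TTGCNNAA for C/EBP factors (10.8% of windows), TGANTCA for AP-1 (7.81%) and TATAAA for the TATA box (13.6%). Of these, the Cx3cl1 window held TATAAA at -6, seen as the last letters printed, and the Csf2 window held TTGCCCAA at -145. A match describes letters only and does not show that a factor was bound.

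Each value below is a normalized count, that is an estimated read count divided by a size factor by the authors. Libraries summed to 7522181 to 9185843 normalized counts, and the smallest step between low values gave an estimate of 6.87 to 11.7 M reads. Of the 9 glial markers, Sox10 was at 3749 or more in every library, while Fabp7 was at 0 in 12 of 15 IL-1β and 7 of 15 naive cultures and at 261 to 614 in RiboTag libraries. Levels are not compared between genes, apart from sums over lists of genes and a ranking of medians among the macrophage and monocyte markers. In bulk libraries, fewer cells of a type and less RNA per cell cannot be told apart.

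**Figure D1:**
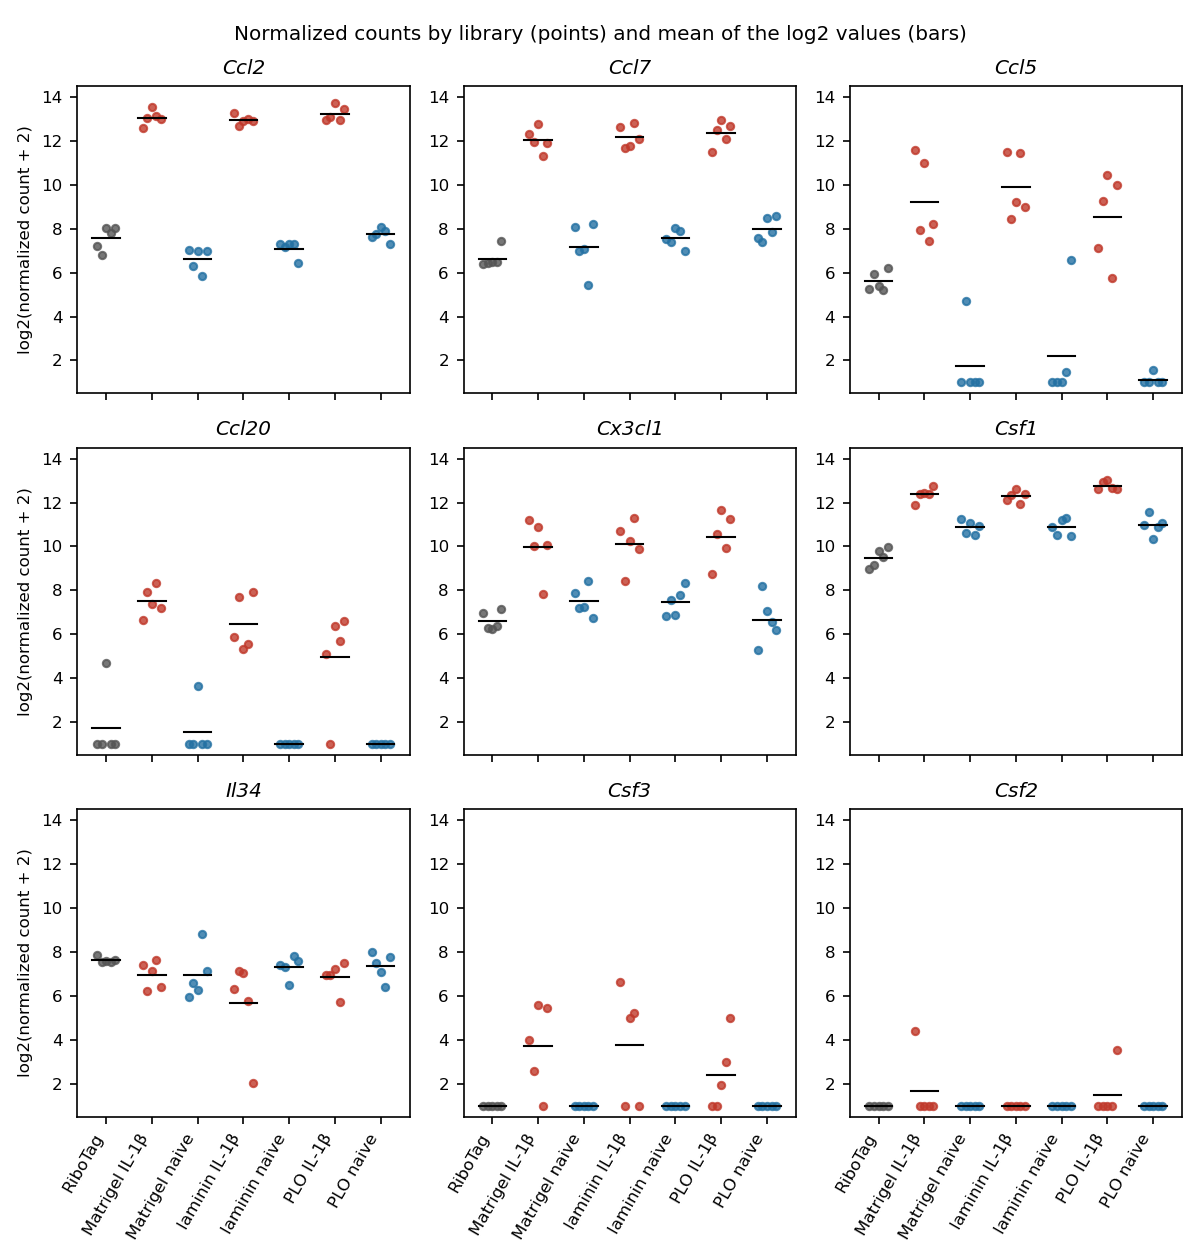
Levels of the 9 genes by library. Each panel is 1 gene, the y axis is log2(normalized count + 2), each point is 1 library (n = 5 per group) and each bar is the mean of the log2 values; PLO is poly-L-ornithine. The IL-1β libraries of Ccl2, Ccl7 and Csf1 lie above every naive library on all 3 coatings, Il34 overlaps throughout, and Csf2 is at 0 in all but 2 libraries.

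The first question was how these genes responded to IL-1β. Over the 3 coatings, 7 of the 9 genes rose and 0 fell at an adjusted p below 0.05 (limma with Benjamini-Hochberg adjustment over 20687 genes), namely Ccl2, Ccl7, Ccl5, Ccl20, Cx3cl1, Csf1 and Csf3. Among all genes tested, 3.42% were called higher and 4.02% lower. The median log2 difference was 2.97 over the 9 genes and -0.04 over all genes. Il34 and Csf2 did not pass. Ccl20, Csf2 and Csf3 reached the filter, a maximum above 15, only through IL-1β libraries. Csf2 and Csf3 were at 0 in all 15 naive cultures and could only rise. Together the 9 genes took 0.256% ± 0.0584 of all normalized counts in IL-1β cultures and 0.0314% ± 0.00545 in naive cultures (SD, n = 15 each).

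Ccl2, the main ligand of CCR2, was present in every naive culture and rose strongly after IL-1β. On Matrigel it was at 6184, 8336, 11936, 9106 and 8163 normalized counts in IL-1β libraries, against 127, 76.1, 125, 55.1 and 126 in naive libraries. On laminin the IL-1β libraries were at 9896, 6459, 7568, 8182 and 7753, against 154, 140.1, 157, 154 and 85.7 in naive libraries. On poly-L-ornithine the values were 7983, 8806, 13691, 7849 and 11075 with IL-1β and 194, 217, 271, 239 and 158 in naive cultures. The lowest IL-1β library of any coating was therefore far above the highest naive library. The means were 8866 ± 2030 in IL-1β cultures and 152 ± 59.4 in naive cultures (SD, n = 15 each), a ratio of 58.4, and the log2 difference was 5.93 (SE 0.118, limma adjusted p = 1.04e-43).

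Ccl7, a further CCR2 ligand encoded next to Ccl2, moved with it. Matrigel libraries held 5101, 3913, 6901, 2572 and 3838 normalized counts with IL-1β and 266, 124, 135, 41.0 and 291 when naive. Laminin libraries held 6256, 3303, 3529.6, 7138 and 4322 with IL-1β and 181, 166, 259, 234 and 123 when naive. Poly-L-ornithine libraries held 2872, 5763, 7960.3, 4413 and 6552 with IL-1β and 186, 168, 351, 226 and 377 when naive. No IL-1β library overlapped a naive one, although on each coating the IL-1β libraries spread over a wider ratio than for Ccl2. The mean was 4962 ± 1697 in IL-1β cultures and 209 ± 90.6 in naive cultures (SD, n = 15 each), 23.8 times higher, with a log2 difference of 4.64 (SE 0.236, limma adjusted p = 1.08e-13).

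Ccl5 was listed at 0 in 11 of 15 naive cultures and was found in every IL-1β culture, over a wide range. With IL-1β it was at 3068, 243, 2032, 170.4 and 292 normalized counts on Matrigel and at 2868, 349, 589.6, 2792 and 514 on laminin. On poly-L-ornithine it was at 139, 613, 1372, 52.4 and 1028. The naive libraries above 0 were 1 on Matrigel at 24.2, a pair on laminin at 0.805 and 94.3, and 1 at 0.920 whose coating was poly-L-ornithine. A naive laminin library at 94.3 was thus above the lowest IL-1β library of another coating, at 52.4, while within each coating the IL-1β and naive libraries did not overlap. The mean was 1075 ± 1085 in IL-1β cultures and 8.02 ± 24.7 in naive cultures (SD, n = 15 each). The log2 difference of 7.53 (SE 0.565, limma adjusted p = 3.57e-14) depends on the pseudocount of 2, because most naive libraries were at 0.

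Ccl20, the only ligand of CCR6 in this group, was at 0 in 14 of 15 naive cultures, the other being a Matrigel library at 10.4. After IL-1β it was at 97.5, 242, 162, 322 and 147 normalized counts on Matrigel. On laminin IL-1β libraries were at 56.4, 208, 37.7, 45.4 and 245, and on poly-L-ornithine at 32.6, 0, 80.8, 50.4 and 94.1. Groups did not overlap on Matrigel or laminin, and on poly-L-ornithine 1 IL-1β library was at 0 like its naive libraries. The mean was 121 ± 95.4 in IL-1β cultures (SD, n = 15) and the log2 difference was 5.14 (SE 0.559, limma adjusted p = 2.53e-10).

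Cx3cl1, the membrane-bound chemokine, was expressed in all naive cultures and rose less than Ccl2 in log2 terms. On Matrigel it was at 2381, 1035, 1868, 226 and 1056 normalized counts with IL-1β, against 234, 146, 149, 340.2 and 104 in naive libraries. On laminin it was at 1689, 344, 1226, 2523 and 939.8 with IL-1β, against 112, 184, 114, 218 and 323 in naive libraries. On poly-L-ornithine it was at 430.2, 1529, 3215, 972 and 2439.9 with IL-1β, against 37.5, 296, 132, 91.1 and 71.9 in naive libraries. A Matrigel IL-1β library at 226 fell within the naive range, and on laminin and poly-L-ornithine the groups did not overlap. The mean was 1458 ± 886 in IL-1β cultures and 170.0 ± 93.2 in naive cultures (SD, n = 15 each), 8.57 times higher, with a log2 difference of 2.97 (SE 0.370, limma adjusted p = 2.28e-06).

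Csf1 was already present in every naive library and rose least, in log2 terms with the pseudocount of 2, of the 7 genes called. This rank depends on the setting. Under the alternatives other than leaving out a library, Csf3 rose by 1.28 to 3.56 and Csf1 by 1.51 to 1.57. On Matrigel it was at 3811, 5401, 5452, 5395 and 6941 normalized counts with IL-1β and at 2417, 1586, 2135, 1450.5 and 1932 in naive libraries. On laminin it was at 4467, 5198, 6306, 3904 and 5289.7 with IL-1β and at 1898, 1476, 2391, 2515 and 1409 in naive libraries. On poly-L-ornithine it was at 6185, 7925, 8438, 6513 and 6179 with IL-1β and at 2041, 3023, 1289, 1888 and 2144 in naive libraries. The groups did not overlap on any coating or across coatings. The mean was 5827 ± 1315 in IL-1β cultures and 1973 ± 485 in naive cultures (SD, n = 15 each), 2.95 times higher, with a log2 difference of 1.57 (SE 0.110, limma adjusted p = 8.59e-13).

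Il34, the other CSF1R ligand, did not rise with Csf1. On Matrigel it was at 167, 73.0, 139, 196 and 84.0 normalized counts with IL-1β and at 59.6, 94.0, 75.5, 450.4 and 138 in naive libraries. On laminin it was at 76.7, 140.1, 131, 52.8 and 2.11 with IL-1β and at 169, 155, 89.3, 226 and 193 in naive libraries. On poly-L-ornithine it was at 121, 121, 148, 51.4 and 177 with IL-1β and at 251, 176, 134, 81.7 and 218 in naive libraries. The groups overlapped on every coating. The mean was 112 ± 53.7 in IL-1β cultures and 167 ± 98.1 in naive cultures (SD, n = 15 each), and the log2 difference of -0.71 (SE 0.353, limma adjusted p = 0.282) did not pass.

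Csf3 and Csf2 were near the floor of detection. Csf3 was listed at 0 in all 15 naive cultures and reached 14.1, 4.00, 45.8, 0 and 42.0 normalized counts on Matrigel with IL-1β, 98.0, 0, 29.5, 34.8 and 0 on laminin, and 0, 0, 1.86, 6.04 and 29.8 on poly-L-ornithine. Its mean in IL-1β cultures was 20.4 ± 27.3 (SD, n = 15), and it passed over the 3 coatings together (log2 difference 2.29, SE 0.564, limma adjusted p = 0.00384) but on no single coating. Csf2 was above 0 in only 2 of the 35 libraries, an IL-1β library on Matrigel at 19.4 and 1 on poly-L-ornithine at 9.60, and its adjusted p was 0.547 by limma. At this depth no difference in Csf2 was detectable.

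Within each of the 3 coatings 6 of the 9 genes rose, and they were Ccl2, Ccl7, Ccl5, Ccl20, Cx3cl1 and Csf1 each time. Among all genes 1.14% were called higher on Matrigel, with 1.15% for laminin and 1.20% for poly-L-ornithine. The log2 differences on Matrigel, laminin and poly-L-ornithine were 6.44, 5.85 and 5.49 for Ccl2, and 4.89, 4.64 and 4.38 for Ccl7. For Csf1 they were 1.50, 1.40 and 1.80. In the main fit Cx3cl1 had limma adjusted p-values of 0.0385 for Matrigel, 0.0252 for laminin and 0.000739 for poly-L-ornithine. Its support was the weakest of the 6 genes on Matrigel and laminin, and that of Ccl20 was weakest on poly-L-ornithine (adjusted p = 0.0110). The Cx3cl1 calls on Matrigel and laminin were lost when any of 8 and any of 6 of the 10 libraries of that coating was left out. Its support depended on the setting. With the order of serial numbers as a block, chosen after seeing the data, its limma adjusted p-values were 1.07e-06, 2.91e-07 and 7.13e-11 in the same order of coatings. Under voom, a further alternative, it was called on no coating. Every IL-1β library was above every naive library for 5 of the 9 genes on Matrigel (1.40% of all genes), for 6 on laminin (1.44%) and for 5 where poly-L-ornithine was the coating (1.84%). For all 15 libraries against 15 it held for 3 genes (Ccl2, Ccl7 and Csf1) and for 0.372% of all genes.

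**Figure D2:**
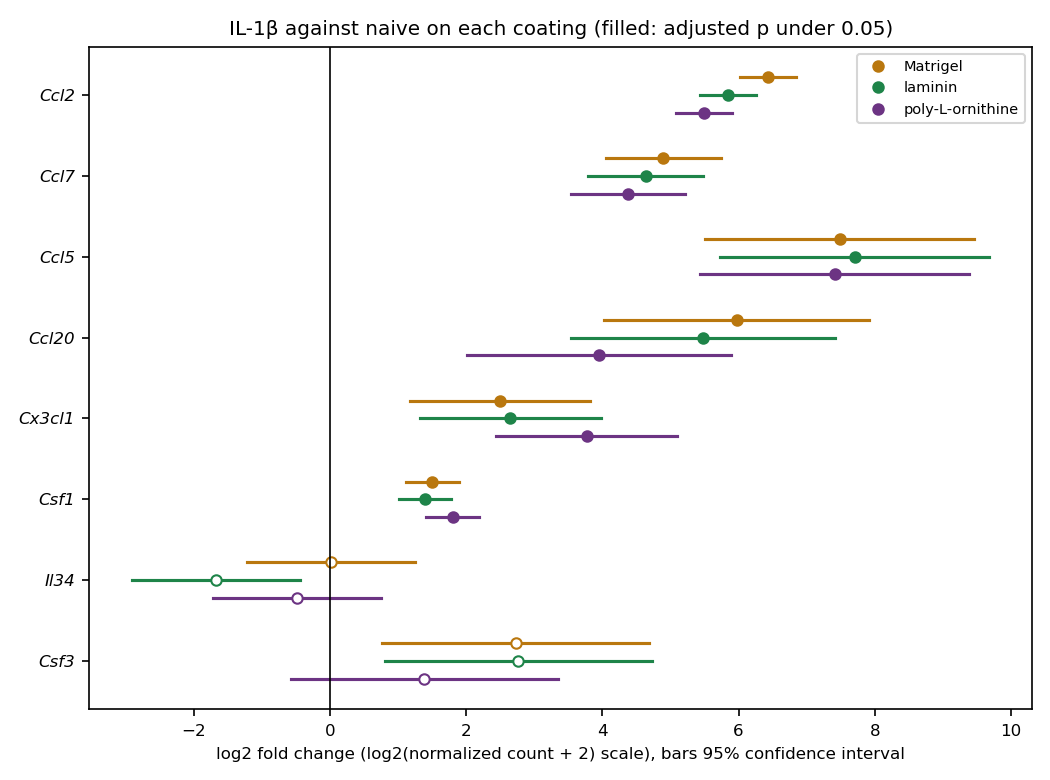
Log2 difference of IL-1β minus naive cultures for each gene except Csf2, by coating. Points are limma estimates on the log2(normalized count + 2) scale, bars are 95% confidence intervals, and filled points passed an adjusted p of 0.05. Ccl2, Ccl7, Ccl5, Ccl20, Cx3cl1 and Csf1 are filled on each coating, and Csf3 and Il34 are open on each coating.

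The cultures held markers of other cells, which moved in part with treatment. Summed over 8 smooth muscle markers, IL-1β cultures were at 2221 to 14869 and naive cultures at 7500.2 to 39429 normalized counts, and over 6 fibroblast markers at 12933 to 82291 and 21826 to 76232. Macrophage and monocyte markers summed to 292 to 1744 in IL-1β cultures and 193 to 1095 in naive cultures. The highest medians in this list were those of Lyz2 and Csf1r, at 319 and 216 in IL-1β and 405 and 112 in naive cultures. C1qa, C1qb and Cx3cr1 each had a median of 0 in both. Ptprc, the common leukocyte antigen, was at 0 in 12 of 15 IL-1β cultures (highest 12.01) and 11 of 15 naive cultures (highest 23.0). The part of these cells in the chemokine levels was not tested.

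The second question was whether the coating changed these genes. Cell markers differed in part by coating. Smooth muscle markers on Matrigel, laminin and poly-L-ornithine summed to medians of 14805, 15295 and 9170 in naive cultures. With IL-1β these medians were 10650, 8277 and 3903. Sums of glial and of fibroblast markers overlapped between the coatings. The part of cell make-up in the differences between coatings was not tested. In naive cultures the only gene called of 20687 between Matrigel and poly-L-ornithine was Ccl2 (0.00483% of all genes), which was lower on Matrigel by a log2 difference of -1.12 (SE 0.205, limma adjusted p = 0.0240). The 5 Matrigel naive libraries were at 55.1 to 127 normalized counts and all lay below the 5 poly-L-ornithine naive libraries at 158 to 271. The call was lost without Matrigel naive replicate 2 (adjusted p = 0.0629) or 4 (0.231), or without poly-L-ornithine naive replicate 3 (0.226) or 4 (0.0791), and also when only the groups compared were fitted (0.641). Ccl2 was at 85.7 to 157 on laminin, also below poly-L-ornithine, but the difference of -0.65 did not pass (adjusted p = 0.976, limma).

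With the Matrigel and laminin libraries pooled, 0 of the 20687 genes (0.00%) differed from poly-L-ornithine in naive cultures by limma, while 1046 had an unadjusted p below 0.05. Ccl2 was lower by a log2 difference of -0.88 (95% interval -1.24 to -0.53, adjusted p = 0.0790), and passed with the order of the libraries' serial numbers as a block (adjusted p = 0.0376). Between laminin and poly-L-ornithine in naive cultures 0 genes (0.00%) were called, with 942 below an unadjusted p of 0.05. No other of the 9 genes was called in these naive comparisons.

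After IL-1β, 0 of the 9 genes differed between the pooled Matrigel and laminin libraries and those on poly-L-ornithine, where 63 of all genes were called (0.305%). Csf1 was lower by -0.44 in log2 terms on Matrigel and laminin (95% interval -0.78 to -0.11, limma adjusted p = 0.384), and Ccl20 was higher by 2.03 (0.35 to 3.71, adjusted p = 0.483). With the order of serial numbers as a block, an alternative chosen after seeing the data, Csf1 passed for the pooled coatings (adjusted p = 0.0136) and for laminin alone (0.0352). Ccl2 (-0.23, adjusted p = 0.820) and Cx3cl1 (-0.38, adjusted p = 0.927) did not pass either. None of the 9 was among the 28 genes (0.135%) called between Matrigel and poly-L-ornithine or the 11 genes (0.0532%) called between laminin and poly-L-ornithine after IL-1β. The difference of the IL-1β response between these coatings was called for 0 genes (0.00%, 867 at an unadjusted p below 0.05, limma). For Ccl2 this difference was 0.65 (95% interval 0.15 to 1.15, adjusted p = 0.961) and for Ccl20 1.77 (-0.61 to 4.14, adjusted p = 0.961). For Cx3cl1 it was -1.19 (-2.81 to 0.43), for Csf1 -0.35 (-0.83 to 0.12) and for Il34 -0.35 (-1.86 to 1.16), with adjusted p-values of 0.961, 0.961 and 0.972.

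Within a coating, Ccl5, Cx3cl1 and Ccl7 in IL-1β libraries differed by place in the order of the serial numbers that the submitters' descriptions give. Their levels did not rise steadily along that order. What a serial number stands for is not given in the sources used here. At the first place in this order the 3 coatings had 939.8 to 1035 normalized counts of Cx3cl1 in IL-1β cultures, at the second 1056 to 1529, at the third 226 to 430.2, at the fourth 1689 to 2439.9 and at the fifth 2381 to 3215. At each place the 3 coatings differed by at most 1.91 times, while within a coating the libraries ran from 226 to 2381 on Matrigel, 344 to 2523 on laminin and 430.2 to 3215 on poly-L-ornithine. Ccl7 in IL-1β cultures was at 3913 to 4413, 3529.6 to 5763, 2572 to 3303, 6256 to 6901 and 5101 to 7960.3 at these places. Ccl5 was at 52.4 to 514, 292 to 613, 139 to 349, 1028 to 2868 and 1372 to 3068. The libraries at the last 2 places were the highest for Ccl5 and Cx3cl1 on every coating. In naive cultures Ccl5 was above 0 at the last place on all 3 coatings (0.920 to 94.3) and otherwise only in 1 library at 0.805. Naive Csf1 was also close across coatings, at 1888 to 2135, 2417 to 3023, 1932 to 2391, 1450.5 to 2144 and 1289 to 1586. Ccl20 in IL-1β cultures spread over the coatings at each place, from 50.4 to 245 at the first and from 32.6 to 322 at the third. These values are a description, with no test.

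**Figure D3:**
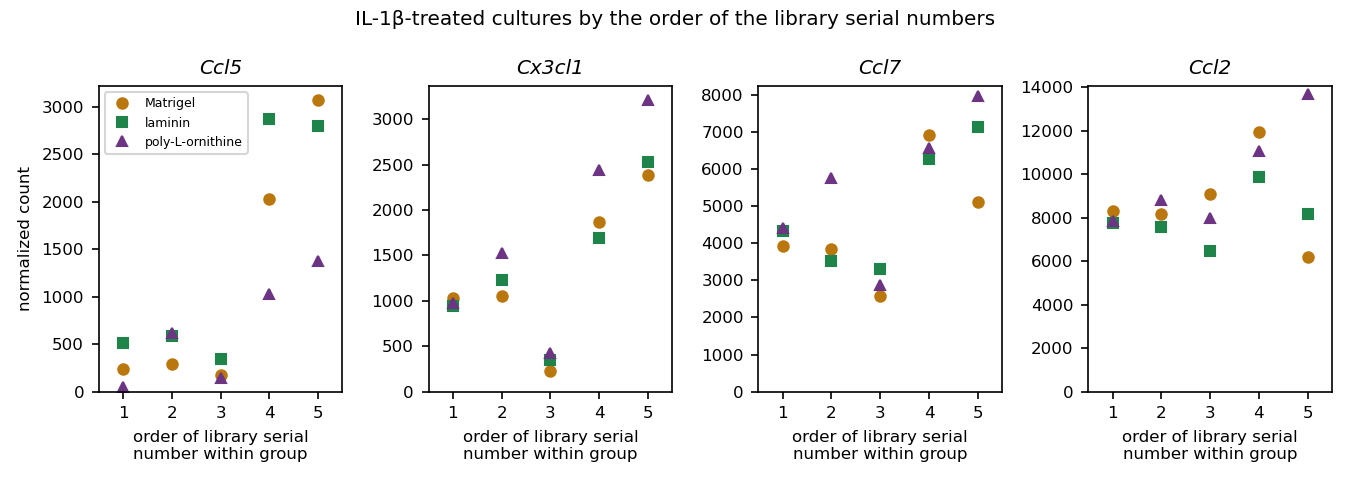
Levels of Ccl5, Cx3cl1, Ccl7 and Ccl2 in IL-1β cultures by the order of the library's serial number within its group. The x axis is the place in that order (1 to 5), the y axis is the normalized count, and each point is 1 library, marked by coating. The 3 coatings follow each other for Cx3cl1 (226 to 430.2 at the third place, 2381 to 3215 at the fifth).

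Across the 15 IL-1β libraries, after removal of each coating's mean, 3 of 21 pairs of genes were correlated at an adjusted p below 0.05 (permutation within coatings, two-sided). They were Ccl7 with Cx3cl1 (r = 0.909, p = 3e-05, adjusted p = 0.00063; rho = 0.875, p = 0.00027), Ccl7 with Ccl5 (r = 0.853, p = 0.00056, adjusted p = 0.00392; rho = 0.850, p = 0.00041) and Ccl5 with Cx3cl1 (r = 0.818, p = 0.00033, adjusted p = 0.00347; rho = 0.950, p = 1e-05, the smallest these permutations can give). Without the 2 libraries farthest from the median, r was 0.900, 0.862 and 0.767 for these pairs in that order. The permutations took the libraries of a coating as independent of those on other coatings. Libraries at the same serial place were alike across coatings for Cx3cl1 and Ccl7, so these p-values are likely too small. Within the first 3 places of the serial order (9 libraries) r was 0.848, 0.504 and 0.471, and within the last 2 places (6 libraries) 0.160, -0.373 and 0.616. With only 6 libraries, centred within each coating, the latter values cannot show whether a relation held there. Ccl2 with Ccl7, although neighbouring genes, had r = 0.593 (p = 0.0379, adjusted p = 0.199).

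The third question was how the cultures compared with glia in the tissue. RiboTag libraries held Csf1, Ccl2, Ccl7, Ccl5, Cx3cl1 and Il34, and Csf2 and Csf3 were listed at 0 in all 5. Against naive cultures 1 of 7 genes tested was higher (Ccl5) and 2 were lower (Csf1 and Ccl7), where 31.3% of 20320 genes were called higher and 14.1% lower by limma. The median of all genes was shifted by 0.32 in this comparison, and no direction named here turned relative to it.

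Csf1 was at 506, 566, 882, 723 and 995 normalized counts in RiboTag libraries, all below the 15 naive cultures at 1289 to 3023, with a log2 difference of -1.43 (SE 0.170, limma adjusted p = 1.65e-08). Ccl5 was at 36.6, 58.3, 40.4, 35.2 and 72.0 in RiboTag libraries and at 0 in 11 of 15 naive cultures, with a log2 difference of 3.91 (SE 0.779, adjusted p = 8.05e-05, limma). Every RiboTag library thus held Ccl5, which most naive cultures did not. Ccl7 was at 81.7, 84.3, 87.9, 86.6 and 169.5 in RiboTag libraries and 41.0 to 377 in naive cultures, a difference of -0.92 (SE 0.331, adjusted p = 0.0222, limma) with overlapping groups. This call was lost without RiboTag replicate 1, 2 or 4 (adjusted p = 0.0540, 0.0525 and 0.0512). Ccl2 was at 146, 109, 261, 222 and 259.8 in RiboTag libraries, within the naive range of 55.1 to 271 (log2 difference 0.42, 95% interval -0.15 to 1.00, adjusted p = 0.235). Cx3cl1 at 124, 75.0, 73.7, 82.1 and 139 (log2 difference -0.61, adjusted p = 0.178) and Il34 at 229, 186, 191, 187 and 199.6 (0.43, adjusted p = 0.311) did not pass either. Il34 varied little among RiboTag libraries, with 199 ± 17.9 (SD, n = 5), against 167 ± 98.1 in naive cultures (SD, n = 15). Ccl20 was at 0 in all RiboTag libraries but 1, at 23.8.

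Set against the IL-1β cultures, with the same RiboTag libraries, 7 of the 9 genes were lower in RiboTag libraries (14.8% of 20415 genes were called lower and 32.3% higher). The log2 differences were -5.50 for Ccl2, -5.56 for Ccl7, -3.62 for Ccl5, -4.57 for Ccl20, -3.58 for Cx3cl1, -3.00 for Csf1 and -2.29 for Csf3, with limma adjusted p-values up to 0.0288. Csf3 passed the filter only through IL-1β libraries, and its call was lost without any 1 RiboTag library (adjusted p = 0.0551 to 0.0573). Il34 was higher by 1.15 and did not pass (adjusted p = 0.0601). Summed over the 9 genes, RiboTag libraries held 0.0175% ± 0.00386 of their normalized counts (SD, n = 5), IL-1β cultures 0.256% and naive cultures 0.0314%.

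**Figure D4:**
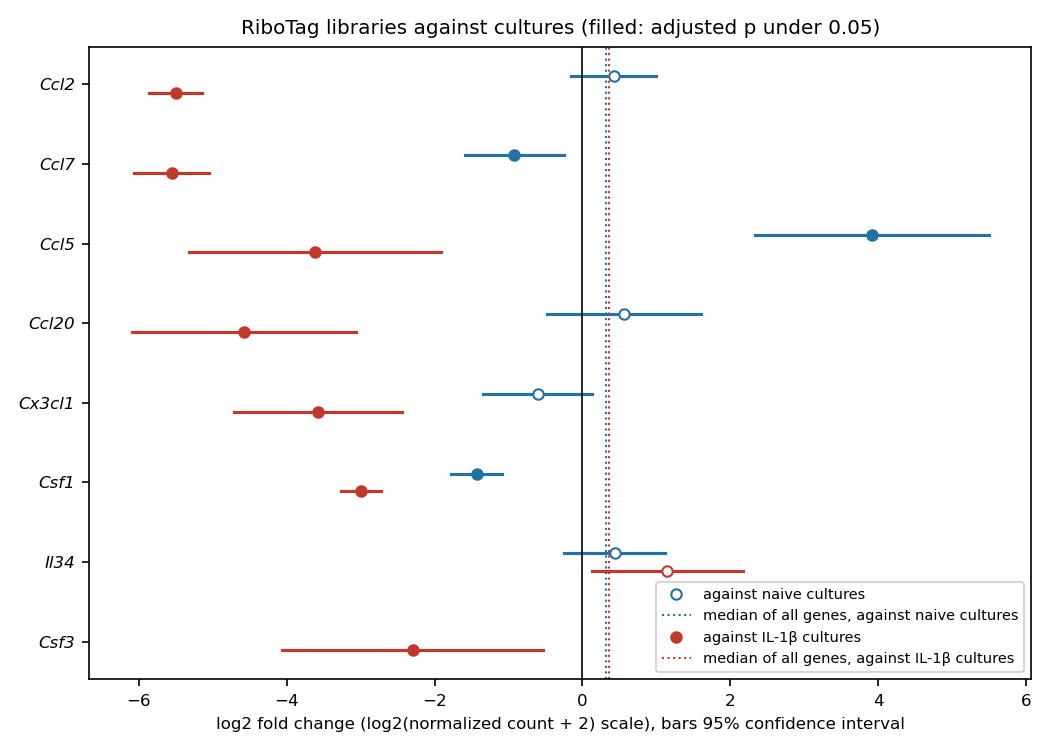
Log2 difference of RiboTag libraries minus naive cultures and minus IL-1β cultures for each gene except Csf2. Points are limma estimates on the log2(normalized count + 2) scale, bars are 95% confidence intervals, and filled points passed an adjusted p of 0.05. Against naive cultures Ccl5 (3.91) is higher and Csf1 (-1.43) and Ccl7 (-0.92) are lower, and against IL-1β cultures 7 genes are lower.

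Markers of other cells also differed between RiboTag libraries and cultures. The 12 macrophage and monocyte markers were each above 15 in at least 1 RiboTag library (Tyrobp was at 0 in 1 of the 5). Their sums were 1642 to 2789 normalized counts, against 292 to 1744 in IL-1β cultures and 193 to 1095 in naive cultures. Ptprc was at 18.7 to 56.8 in RiboTag libraries. Lyz2 went the other way, with medians of 202 in RiboTag libraries, 319 in IL-1β cultures and 405 in naive cultures. Lymphocyte markers, of which 5 of 6 were used, summed to 3.61 to 65.4 in RiboTag libraries, 0 to 22.0 in IL-1β cultures and 0 to 37.7 in naive cultures. Smooth muscle markers summed to 227768 to 486266, epithelial markers to 391 to 894 and fibroblast markers to 5454 to 7647 in RiboTag libraries, against 7500.2 to 39429, 0 to 31.3 and 21826 to 76232 in naive cultures. The part of RNA from such cells in the RiboTag levels of Ccl5, Csf1 and the other genes was not tested.

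Of 17 receptors, decoy receptors and binding proteins listed, 14 were in the matrix and 12 were tested with IL-1β, of which 0 rose and 1 fell (Ackr4), beside 3.42% higher and 4.02% lower among all genes, with a median log2 difference of 0.39. On poly-L-ornithine alone 1 rose, Csf2rb, a signalling chain shared by the receptors of Csf2 and related cytokines (log2 difference 2.23, SE 0.636, limma adjusted p = 0.0415). Csf2rb was near the floor, at 0 in all 15 naive cultures and in 9 of 15 IL-1β cultures (highest 31.2). Among cultures it passed the filter only through IL-1β libraries and could only rise. Ackr4, an atypical receptor that takes up chemokines without signalling, was at 216 ± 298 in IL-1β cultures and 1464 ± 583 in naive cultures (SD, n = 15 each), a log2 difference of -3.70 (SE 0.420, limma adjusted p = 5.51e-07). Csf1r, the receptor for Csf1 and Il34, averaged 187 in IL-1β cultures and 116 in naive cultures (adjusted p = 0.373). Cx3cr1, the receptor for Cx3cl1, was at 0 in 14 of 15 IL-1β and 14 of 15 naive cultures. Ccr2 and Csf3r did not reach the filter among cultures, and Ccr3, Ccr6 and Ackr2 were not used here.

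In RiboTag libraries 10 of 14 receptors were higher and 3 lower than in naive cultures by limma, beside 31.3% and 14.1% of all genes, with a median of 2.80 against 0.32 for all genes. Ccr2, Csf2rb and Csf3r were at 0 in all 15 naive cultures and passed the filter here only through RiboTag libraries. For these genes higher was the only possible direction, and they enter the counts and the median. Cx3cr1 was higher by 5.69 (adjusted p = 6.47e-09) and Ccr2 by 3.51 (adjusted p = 3.03e-07), as was Ptprz1, a binding partner of IL-34, by 3.69 (adjusted p = 1.06e-06), while Sdc1, another such partner, was lower by -3.50 (adjusted p = 3.38e-11). Csf1r averaged 644 ± 214 in RiboTag libraries and 116 ± 60.3 in naive cultures, Cx3cr1 132 in RiboTag libraries and 1.83 in naive cultures, and Ccr2 25.7 and 0 in these groups. Csf1r and Cx3cr1 are themselves macrophage markers, whose list moved as given above. Against IL-1β cultures 11 of 14 receptors were higher and 2 lower in RiboTag libraries, beside 32.3% and 14.8% of all genes. Ccr2 and Csf3r, at most at 1.06 and 4.22 in IL-1β cultures, again passed the filter only through RiboTag libraries.

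**Figure D5:**
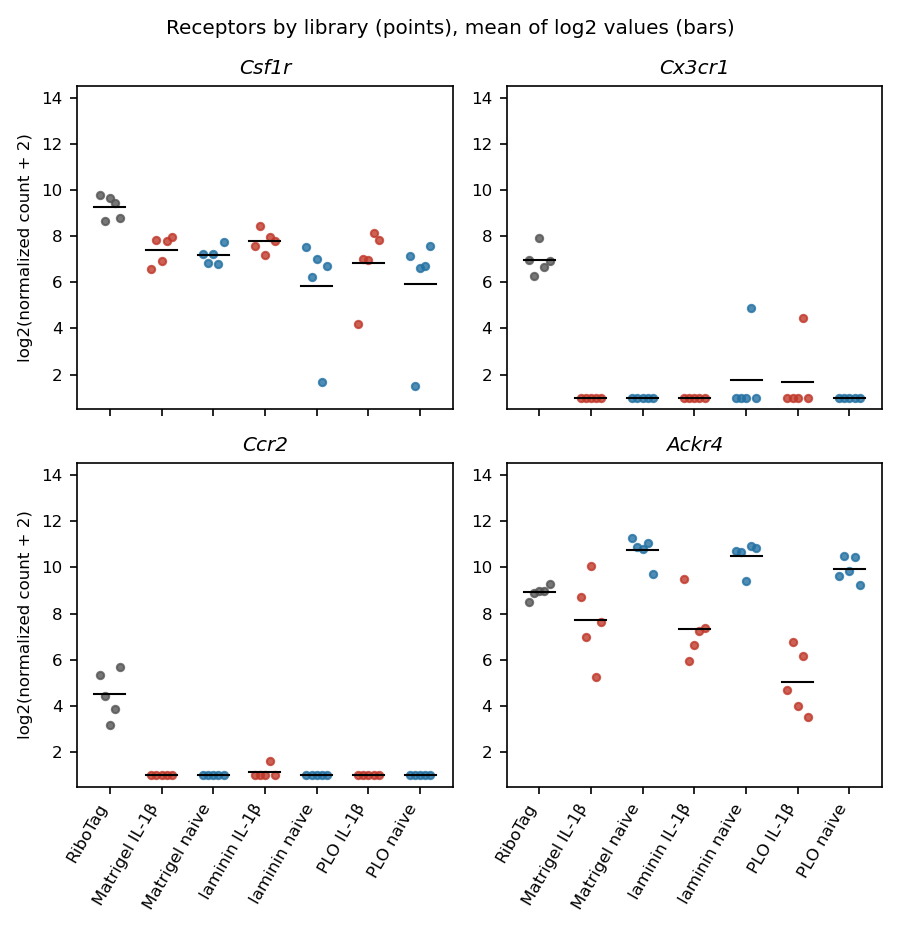
Levels of Csf1r, Cx3cr1, Ccr2 and Ackr4 by library, chosen for the ligands they bind with values already known. The y axis is log2(normalized count + 2), each point is 1 library (n = 5 per group) and each bar is the mean of the log2 values; PLO is poly-L-ornithine. Cx3cr1 and Ccr2 are at or near 0 in most cultures and above 0 in all RiboTag libraries, and Ackr4 is lower in IL-1β than in naive cultures (means 216 and 1464).

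Of 17 other CC chemokines listed, 13 were tested with IL-1β, and 4 rose and 0 fell, beside 3.42% and 4.02% of all genes, with a median log2 difference of 0.62. Ccl11 (eotaxin, an eosinophil attractant) was at 669 ± 296 normalized counts in IL-1β cultures and 49.2 ± 27.6 in naive cultures (SD, n = 15 each; log2 difference 3.75, limma adjusted p = 1.86e-14). Ccl17 and Ccl3 were at 0 in every naive culture and averaged 36.1 and 26.0 in IL-1β cultures, with log2 differences of 3.26 and 2.25 (adjusted p = 2.85e-05 and 0.00824), and Ccl8 rose by 2.33 (adjusted p = 0.0206). Ccl17 was at 0 in 3 and Ccl3 in 7 of 15 IL-1β cultures. Both passed the filter among cultures only through IL-1β libraries and could only rise. In RiboTag libraries 5 of 9 such chemokines were higher and 0 lower than in naive cultures, beside 31.3% and 14.1% of all genes. Those with the smallest adjusted p were Ccl21a (4.49), Ccl12 (2.81), Ccl9 (3.85) and Ccl6 (4.47). Of these 4, none was called with IL-1β. Ccl12 was at 0 in all 15 naive cultures and passed the filter against them only through RiboTag libraries. Against IL-1β cultures 5 of 13 were higher and 2 lower in RiboTag libraries, beside 32.3% and 14.8% of all genes.

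Among 21 regulators of these genes, such as NF-κB subunits, their inhibitors, C/EBP factors, messenger decay factors and sheddases, 15 rose and 0 fell with IL-1β, beside 3.42% and 4.02% of all genes, with a median log2 difference of 1.18. The NF-κB inhibitor Nfkbia, itself induced by NF-κB, was at 6069 ± 1289 in IL-1β cultures and 567 ± 160 in naive cultures (SD, n = 15 each; log2 difference 3.43, limma adjusted p = 9.74e-30). The transcription factor Cebpd rose by 2.42 (adjusted p = 3.32e-28) and the NF-κB cofactor Nfkbiz by 2.85 (adjusted p = 2.52e-15). Adam17, a protease that sheds membrane-bound Cx3cl1 and Csf1, rose by 1.19 (adjusted p = 4.61e-12), with 1357 ± 223 in IL-1β cultures and 604 ± 144 in naive cultures (SD, n = 15 each). In RiboTag libraries 6 of 21 regulators were higher and 2 lower than in naive cultures, beside 31.3% and 14.1% of all genes, among them Nfkb2 (4.05, adjusted p = 4.84e-18) and Nfkbia (1.99, adjusted p = 1.14e-11). Against IL-1β cultures 4 were higher and 12 lower in RiboTag libraries, beside 32.3% and 14.8% of all genes, with Nfkbiz lower by -2.71 (adjusted p = 1.12e-12).

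As a description over all 35 libraries, the genes most like each responding member among 10104 genes with a mean of at least 50 were found by Pearson's r of log2(normalized count + 2). These libraries share the treatment contrast and the difference of RiboTag from culture. Ccl2 was most like Ccl7 (r = 0.970), Cxcl2 (0.969) and Sod2 (0.966), and Ccl7 most like Ccl2, Sod2 (0.946) and Il13ra2 (0.938). Ccl5 was most like Nfkbia (0.942), Cxcl5 (0.925) and Hp (0.919), and Ccl20 most like Sod2 (0.874), Ccl2 (0.872) and Cxcl2 (0.860). Cx3cl1 was most like Gng12 (0.920), Icam1 (0.892) and Sod2 (0.890), and Csf1 most like Tnfaip2 (0.946), Mt2 (0.928) and Odc1 (0.928). For Csf3, at 0 in most libraries, the highest values were lower (Dnajb6 0.752, Ifnar2 0.747 and Tmem176b 0.743).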

How the data were processed

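RNA was sequenced from the 3' end (QuantSeq) in 35 mouse libraries. The authors trimmed reads with cutadapt, aligned them to mm10 with STAR, counted them in Partek Flow and normalized counts with DESeq2, and the deposited signal is an estimated count per gene divided by a size factor. Between 86.8% and 90.0% of low values were whole multiples of a library's smallest step (within 0.05), which gave the estimated reads per library, and 33.9% of values were 0. Genes whose maximum exceeded 15 were tested on log2(normalized count + 2) with limma 3.58.1 (R 4.3.3; trend and robust), with Benjamini-Hochberg adjustment over all genes tested and a threshold of 0.05. The 30 culture libraries entered a fit with 6 group means, and RiboTag libraries were fitted with the 15 naive and, separately, the 15 IL-1β libraries. A fold change on this scale understates the change of low genes. Tests were checked on simulated data. Correlations used 100000 permutations (scipy 1.17.1).

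The 9 members and the related lists were chosen with earlier results of these data known. All 9 are named, of each related list at most 4 genes with the smallest adjusted p in a comparison, and for likeness the 3 genes with the highest r; receptors plotted or named beyond this were chosen after their values were seen. The culture time is that of the labels, which differs from the text of the study's methods. Alternatives were pseudocounts of 1 and 8, a mean filter of 10 and no filter, equal totals, median-of-ratios scaling, voom, fits of only the groups compared, a replicate block and leaving out each library. The block on the order of serial numbers was chosen after seeing the data. 1 receptor of the related lists is not reported here by name. Promoter sequences are from RefSeq (GRCm38.p6).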

Additional observations from a re-analysis of the deposited data

Results flagged for a closer look

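In 52 sets of 5 libraries of a group, the highest or lowest library of a gene was compared with the others (Dixon's ratio above 0.71), which chance alone passes in about 5% of sets with continuous values. It was passed in 11 sets, and in 6 of these the other 4 libraries were at 0, so that any value above 0 passes and the 5% does not apply. Ccl2 was at 85.7 normalized counts in laminin naive replicate 5, against 140.1 to 157 in the other 4 libraries of that group. Ccl7 was at 169.5 in RiboTag replicate 5, against 81.7 to 87.9 in the others. Il34 was at 450.4 in Matrigel naive replicate 4, against 59.6 to 138 in the others. Ccl5 stood out in a naive library of each coating, at 24.2 in Matrigel replicate 2, 94.3 in laminin replicate 5 and 0.920 in poly-L-ornithine replicate 3, where the others were at 0 or, on laminin, up to 0.805. These are the libraries at the last place of the serial order on their coating. Ccl20 was at 10.4 in Matrigel naive replicate 3 and at 23.8 in RiboTag replicate 3, with the others at 0. Csf2 was at 19.4 in Matrigel IL-1β replicate 1 and at 9.60 in poly-L-ornithine IL-1β replicate 5, with the others at 0. Csf3 was at 29.8 in poly-L-ornithine IL-1β replicate 5, against 0 to 6.04 in the others.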

How the results depend on the processing

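Of the 9 genes, 7 rose with IL-1β over the 3 coatings under every alternative run, 5 to 6 on Matrigel, 4 to 6 on laminin and 5 to 6 on poly-L-ornithine. Cx3cl1 was not called under voom on Matrigel (adjusted p = 0.239 and 0.214 on normalized counts and rebuilt reads), laminin (0.206 and 0.218) or poly-L-ornithine (0.143 and 0.149), nor on Matrigel when only the groups compared were fitted (0.130). Leaving out 1 library moved its adjusted p from 0.0060 to 0.112 on Matrigel, where the call ended without IL-1β or naive replicate 1, 2, 3 or 5, and from 0.0084 to 0.0916 on laminin, where it ended without IL-1β replicate 1, 3 or 4 or naive replicate 1, 2 or 3. Ccl5 was lost under voom on Matrigel (0.0895 and 0.0885) and laminin (0.183 and 0.197), and Ccl20 on poly-L-ornithine without IL-1β replicate 3 (0.0564) or 5 (0.0548). Csf3 was gained on Matrigel by voom (0.0303 and 0.0231).

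For coatings, the count of genes of the 9 called was 1 for Matrigel against poly-L-ornithine in naive cultures and 0 under voom of either kind (Ccl2 adjusted p = 0.835 and 0.855) or when only the groups compared were fitted (0.641). It was 0 to 1 when a library was left out. For Matrigel and laminin together it was 0 in naive cultures and 1 with the serial rank block (Ccl2, 0.0376), and 0 to 1 when a library was left out, with Ccl2 called without Matrigel naive replicate 5 (0.0212), laminin naive replicate 3 (0.0469) or poly-L-ornithine naive replicate 5 (0.0210). After IL-1β the serial rank block gave 1 in place of 0, Csf1, for Matrigel and laminin together (0.0136) and for laminin (0.0352). With that block Cx3cl1 had adjusted p-values of 1.07e-06, 2.91e-07 and 7.13e-11 for IL-1β on Matrigel, laminin and poly-L-ornithine.

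RiboTag calls were 2 to 3 against naive cultures and 6 to 8 against IL-1β cultures. Under voom, Ccl7 was lost against naive cultures (0.128 and 0.149), and Ccl5 (0.262 and 0.286) and Cx3cl1 (0.0572 and 0.0732) against IL-1β cultures, where Il34 was gained (0.00458 and 0.00635), as with a pseudocount of 8 (0.0373), with equal totals (0.0318) or without laminin IL-1β replicate 2 (0.0331), 3 (0.0339) or 5 (0.0387). The median of all genes was shifted by 0.41 and 0.48 with equal totals and by 0.50 and 0.60 with voom.

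Reversals touched differences that were not called. Il34 on Matrigel, 0.01 in log2 terms, was -0.0081 with equal totals, -0.048 with voom on normalized counts and -0.24 to 0.48 when a library was left out. Csf1 in naive cultures ranged from -0.25 to 0.056 for Matrigel and laminin together, -0.26 to 0.051 for Matrigel and -0.25 to 0.061 for laminin, each with its highest value without poly-L-ornithine naive replicate 2. The cause of these changes was not tested.

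Libraries with the same replicate number did not deviate together (75 pairs, r from -0.07 to 0.06, mean -0.007), so the numbers do not pair them. With the replicate block 1485 genes were called for IL-1β over the coatings in place of 1539, the 7 genes among them, and Cx3cl1 was not called on Matrigel (0.0756) or laminin (0.0536). By serial order the mean r was 0.046 (0.0031 to 0.12), and the serial rank block called 1955 genes. Depth limits Csf2, Csf3 and the naive levels of Ccl5 and Ccl20, which were at or near 0.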
